A study of Mus musculus with 12 samples.

Results

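The genes described here are 8 that carry calcium across the intestinal epithelium: the apical channels Trpv6 and Trpv5, the cytosolic buffer S100g, the basolateral exporters Atp2b1, Atp2b4 and Slc8a1, and the claudins Cldn2 and Cldn12 of the route between cells. They were chosen by name, with earlier results of these data known, from 21154 genes with a symbol on the array. All 15 probes whose accession led to such a name were taken. Testing took the 10 of 15 probes that had signal well over background on every array of some group, and these covered 7 of the 8 genes. Trpv5 was the gene left out by that filter.

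Calcium crosses the intestinal wall along 2 routes. In the route through cells, calcium enters from the lumen through TRPV6, is carried by calbindin-D9k (the product of S100g), and leaves at the basolateral side through the calcium pump PMCA1 (the product of Atp2b1) and, in some epithelia, through the sodium-calcium exchanger NCX1 (the product of Slc8a1). In the paracellular route, claudin-2 and claudin-12 form cation-permeable tight junctions. Calcitriol, 1,25(OH)2D3, is the active vitamin D hormone and acts through the vitamin D receptor (VDR), a nuclear receptor that binds DNA together with a retinoid X receptor at paired half-sites. Trpv6 and S100g are textbook VDR targets of the small intestine, and part of vitamin D dependent calcium uptake takes place in the colon.

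RNA came from colonic organoids, which are crypt epithelium grown in Matrigel as a 3D culture rich in stem cells, from 3 wild-type (wt) and 3 VDR KO mice of strain C57BL/6. The cultures of each mouse received either the vehicle EtOH or 1,25(OH)2D3 at 100 nM, given again every 48 h, which makes 4 groups of 3 arrays: wt vehicle, wt calcitriol, knockout vehicle and knockout calcitriol. Treatment lasted 62 h by the sample descriptions and 72 h by the design text. Mice of replicates 1 and 3 were labelled 2 months old and those of replicate 2 were labelled 3 months old. The knockout is named for the whole mouse, and no driver or deleted exon is given in the sources used here. Whether cells other than epithelium were left in the cultures was read from markers below.

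Over all spots that are not controls, the array's 75th percentile of processed signal was 580.6 to 790.5. Levels here are log2 signal relative to the array's 75th percentile over probes, so that 0 is that percentile. It was taken after outlier spots were left out and the spots of a probe averaged, so it is not the value over spots. The vehicle array of wt mouse 2 differed from the rest among dim spots, with 72.8% of spots over background where the other 11 arrays had 55.0% to 66.4%. Vdr was higher in both wt groups (1.06 to 2.22) than in both knockout groups (-0.22 to 0.61), without overlap, and the knockout was lower by 1.59 in vehicle and by 1.11 in calcitriol (adjusted p = 0.329 and 0.250, or 0.0137 and 0.00790 with the replicate number as a block). Whether its probe lies in the deleted part is not given in the sources used here. Cyp24a1, which encodes the enzyme that breaks calcitriol down, lay at 5.81 to 6.67 on the 3 wt calcitriol arrays, and it was not well above background on any knockout array. Xist, which is transcribed from the inactive X chromosome, was at 1.35 to 2.15 on the 8 arrays of replicates 1 and 3 and at -7.71 to -3.42 on the 4 arrays of replicate 2, and the Y-linked gene Ddx3y showed the opposite (0.82 to 0.99 on replicate 2, -7.96 to -6.62 elsewhere). The labels give replicate 1 as male and replicates 2 and 3 as female, so the sex labels of replicates 1 and 2 go against the arrays in both genotypes. S100g and Cldn2 are X-linked, and their levels are given mouse by mouse below.

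All 10 colon epithelium markers, Epcam and Cdx2 among them, were well above background on all 12 arrays, as were the 7 markers of absorptive colonocytes on the array. None of 6 fibroblast markers and none of 3 smooth muscle markers was above background on all 12 arrays, and Pdgfra, Lum and Actg2 were above it on none. Of 8 markers of small-intestinal enterocytes 3 were above background on all 12, namely Fabp2, Alpi and Slc5a1. Of 8 immune markers 4 were above background on all 12 (Cd3e, Cd68, Itgam and Csf1r), and of 4 endothelial markers 2 were (Pecam1 and Kdr). Fewer arrays were needed for testing, with signal well over background on every array of some group. By that rule 7 of 8 immune, 2 of 4 endothelial, 2 of 6 fibroblast and 0 of 3 smooth muscle markers were kept. The summed linear level of the absorptive colonocyte markers, in units of the 75th percentile signal, was 332 to 424 in wt vehicle, 385 to 517 in wt calcitriol, 381 to 453 in knockout vehicle and 342 to 388 in knockout calcitriol. By the same measure the immune markers lay between 12.95 (in wt vehicle) and 28.53 (in knockout calcitriol). The endothelial markers lay between 3.55 (in knockout vehicle) and 9.18 (in knockout calcitriol). For fibroblast markers the sums were 0.0980 (in knockout vehicle) to 0.403 (in wt vehicle). Each list has its own probes, so sums of different lists are not to be compared in size. The part of these spreads in the results below was not tested. These are bulk samples, so more cells of a type and more RNA per cell cannot be told apart.

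The promoters of the 3 genes that rose with calcitriol are shown first, since 2 of them differ from the third in sequence composition. Each runs 5′ to 3′ on the gene's strand from 250 bases before the annotated start to 30 after it, from RefSeq on GRCm38.p6. S100g lies at chrX:162964570-162964849 (minus strand), Trpv6 at chr6:41636376-41636655 (minus strand) and Atp2b1 at chr10:98914392-98914671 (plus strand). Capitals mark single half-sites of the kind that nuclear receptors of this class bind, searched on either strand. The letters searched were AGGTCA as the first form, AGTTCA as the second form, GGGTCA as another and GGTTCA as the last. Capitals also mark TATAAA, the letters of a TATA box.
S100g: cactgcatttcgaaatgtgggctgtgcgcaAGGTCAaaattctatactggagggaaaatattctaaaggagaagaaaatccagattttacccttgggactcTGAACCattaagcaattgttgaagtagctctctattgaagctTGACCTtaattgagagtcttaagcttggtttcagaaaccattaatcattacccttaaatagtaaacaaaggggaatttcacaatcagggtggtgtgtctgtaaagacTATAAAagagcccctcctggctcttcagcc
Trpv6: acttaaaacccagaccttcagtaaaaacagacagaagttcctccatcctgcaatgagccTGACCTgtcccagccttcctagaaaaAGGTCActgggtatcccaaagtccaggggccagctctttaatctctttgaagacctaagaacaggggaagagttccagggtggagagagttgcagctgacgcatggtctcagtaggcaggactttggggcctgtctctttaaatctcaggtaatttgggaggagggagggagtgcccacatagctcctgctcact
Atp2b1: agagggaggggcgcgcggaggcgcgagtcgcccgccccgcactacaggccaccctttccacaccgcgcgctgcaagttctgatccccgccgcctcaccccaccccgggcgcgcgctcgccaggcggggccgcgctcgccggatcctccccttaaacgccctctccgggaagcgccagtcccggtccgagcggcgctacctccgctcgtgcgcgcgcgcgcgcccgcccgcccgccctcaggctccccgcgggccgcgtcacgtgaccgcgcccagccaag
The S100g window holds AGGTCA on the gene's strand starting at -220 and on the other strand at -107, and GGTTCA on the other strand at -149. It is also marked by TATAAA at the annotated start itself. The Trpv6 window holds AGGTCA on the gene's strand at -165 and on the other strand at -191. AGGTCA occurs on either strand in 16.26% of the 32851 windows of 300 bases in the table, and at least 2 times in 1.81% of them. Neither Atp2b1 window (the gene has a second annotated start) holds any of the 4 half-sites, which 43.71% of all windows do, nor TATAAA, which 13.62% do. Both Atp2b1 windows are 79.3% G or C, against 41.0% for S100g and 51.3% for Trpv6. They hold GGGCGG on either strand 4 and 3 times, a letter group present in 35.66% of windows. Any pair of these half-sites as a direct repeat on either strand with a 3-base spacer (DR3) is in none of the 11 windows of the 8 genes and in 0.04% of all windows. Of the other 5 genes, Cldn2 alone has a half-site (GGTTCA at -80) in its window. These matches describe letters within these windows only. Trpv5 and Trpv6 are direct neighbours on 1 chromosome, with no other gene of the RefSeq table between them.

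Calcitriol against vehicle in wt organoids shows which of the genes respond to the hormone where its receptor is present. An apical channel, the cytosolic buffer and a basolateral pump rose, 1 gene from each step of the route through cells: Trpv6 22.0-fold, S100g 180.1-fold and Atp2b1 3.09-fold. The other 4 tested genes, Atp2b4, Slc8a1, Cldn2 and Cldn12, did not pass the test. The 3 calls among 7 genes, all higher, stand beside 0.148% of all 24245 genes called higher (0.157% called in either direction) by limma at an adjusted p of 0.05. The median difference over the 7 genes was 0.33, with 5 of 7 above 0, and over all genes it was -0.03, with 43.7% above 0. Groups did not overlap for the same 3 genes, against 4.86% of all genes with every calcitriol array above every vehicle array. The set was chosen with earlier results of these data known, so these shares describe it and do not test it.

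**Figure D1:**
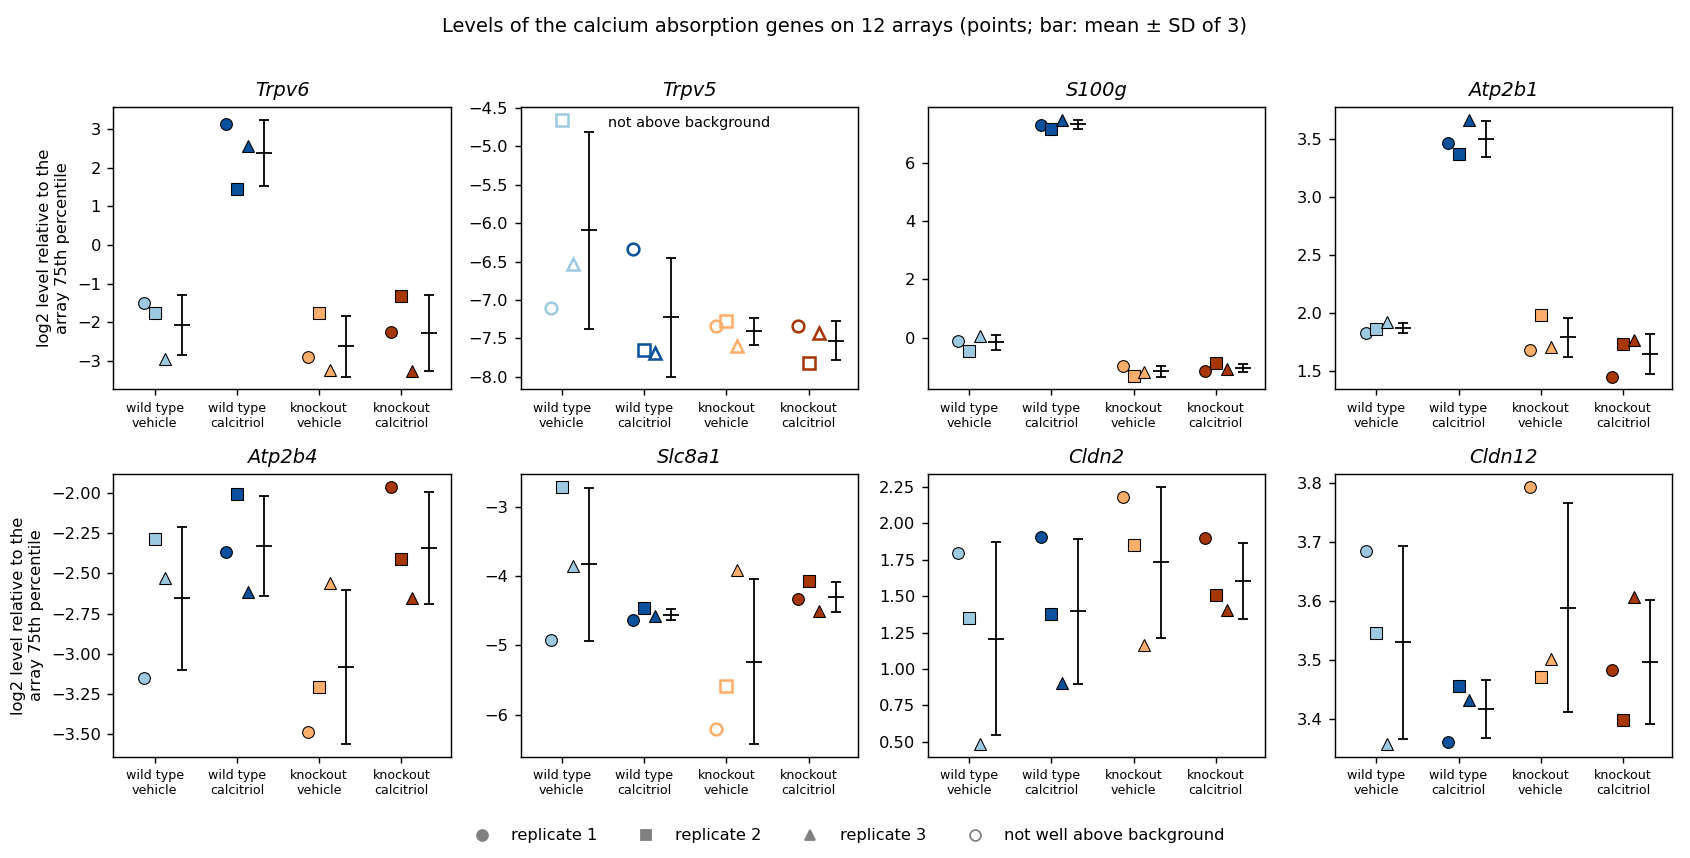
Level of each of the 8 genes (its brightest tested probe; for Trpv5 its single probe) on the 12 arrays by group, as log2 signal relative to the array's 75th percentile. Symbols mark replicate numbers, open symbols arrays where the probe was not well above background, and bars the mean ± SD of 3 arrays. Trpv6, S100g and Atp2b1 are high in the wt calcitriol group and Trpv5 is open on all 12 arrays; each panel has its own axis, and levels of different probes are not to be compared.

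Trpv6, the channel through which luminal calcium enters, lay at -1.49, -1.75 and -2.96 on the vehicle arrays of wt mice 1, 2 and 3. With calcitriol the same mice had 3.14, 1.46 and 2.58. Every calcitriol array was above every vehicle array, and the within-mouse differences were 4.64, 3.22 and 5.53, so the gene rose in each mouse but by unequal amounts. The mean difference was 4.46 (SE 0.59, n = 3 and 3, 95% interval 3.18 to 5.75, limma adjusted p = 0.0107), a 22.0-fold rise with an interval of 9.04 to 53.7. Its spread between mice was the widest of the 3 genes that rose, with an SD of 0.78 in vehicle and 0.86 in calcitriol. Without the wt calcitriol array of mouse 1 or of mouse 3 the call ended (4.09, adjusted p = 0.0605, and 4.37, adjusted p = 0.0530). With the slide as a block it also ended (4.41, adjusted p = 0.237).

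Trpv5, the paralogous channel best known from the kidney, was not well above background on any of the 12 arrays. Its processed signal was 2.84 to 22.2, the highest of these on the vehicle array of wt mouse 2, the array with the most spots above background. No fold is given for it in any comparison. The neighbouring gene Trpv6 was above background on all 12 arrays.

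S100g, the buffer that carries calcium through the cytosol, lay at -0.10, -0.46 and 0.07 on the wt vehicle arrays and at 7.32, 7.18 and 7.49 on the wt calcitriol arrays of mice 1, 2 and 3. In processed signal this was 404 to 696 against 86232 to 119872, with no spot flagged as saturated. The within-mouse differences were 7.42, 7.64 and 7.42, so the gene was higher with calcitriol in each mouse, with the largest difference in mouse 2. The mean difference was 7.49 (SE 0.17, 95% interval 7.12 to 7.86, adjusted p = 4.32e-10), or 180.1-fold (139.5 to 232.6). Its p was the smallest of all 24245 genes, and its size ranked 3. A second probe of the gene lay at -0.79 to -0.26 in vehicle and at 6.81 to 7.22 in calcitriol, a difference of 7.53 (SE 0.17).

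Atp2b1, the plasma membrane pump that exports calcium, had levels of 1.83, 1.86 and 1.92 on the wt vehicle arrays and of 3.47, 3.36 and 3.66 on the wt calcitriol arrays. The groups were far apart relative to their spread (SD 0.05 and 0.15), and the mice differed by 1.64, 1.50 and 1.74. The mean difference was 1.63 (SE 0.14, 95% interval 1.33 to 1.93, adjusted p = 0.000291), a 3.09-fold rise (2.51 to 3.81). By p it ranked 6 of all genes, and by size of difference 341. Its second probe rose by 1.77 (SE 0.18, adjusted p = 0.000995 over 33410 probes), from 0.12 ± 0.20 to 1.90 ± 0.06. In all 5 of the 10 tested probes of the set were called in wt, both probes of S100g and of Atp2b1 and the probe of Trpv6, against 0.159% of all probes.

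Atp2b4, a second plasma membrane pump, was dimmer, at -3.15 to -2.29 in wt vehicle and -2.62 to -2.01 in wt calcitriol. The groups overlapped and the difference of 0.33 (SE 0.32, 95% interval -0.38 to 1.03) did not pass. Its other 2 probes were above background on 2 and 5 of 12 arrays and were not tested. Slc8a1, the sodium-calcium exchanger, was near background: its tested probe was above it on 10 of 12 arrays, the other 2 on 6 and on 0. The tested probe is annotated to a non-coding RefSeq transcript of the gene, the other 2 to coding ones. Whether the tested probe also detects coding transcripts was not tested. The tested probe lay at -4.92 to -2.71 in wt vehicle, with mouse 2 highest, and at -4.63 to -4.47 in wt calcitriol, and the difference of -0.72 (SE 0.62, interval -2.08 to 0.63) did not pass. Of the 3 basolateral exporters, Atp2b1 was the one with a called change in wt; the differences between the exporters were not tested.

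Cldn12, a claudin linked to vitamin D dependent calcium permeability, was steady, with means of 3.53 ± 0.16 in wt vehicle and 3.42 ± 0.05 in wt calcitriol (SD, n = 3). The difference of -0.11 (SE 0.13) had an interval of -0.39 to 0.17, a fold of 0.762 to 1.12. Cldn2, the cation channel of leaky tight junctions, lay at 1.80, 1.35 and 0.48 in wt vehicle and at 1.91, 1.38 and 0.91 in wt calcitriol in mice 1, 2 and 3. Within the mice the differences were 0.11, 0.03 and 0.42, and the mean of 0.19 (SE 0.36, interval -0.59 to 0.97) did not pass. A second Cldn2 probe differed by -0.06 (SE 0.40).

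Cldn2 varied with the replicate number more than with group. In knockout vehicle it lay at 2.18, 1.85 and 1.16, and in knockout calcitriol at 1.90, 1.51 and 1.40, for replicates 1, 2 and 3. In all 4 groups replicate 1 was highest and replicate 3 lowest, and the second probe gave the same order in all 4 groups. Of the sum of squares over the 12 arrays 72.2% lay between replicate numbers and 18.8% between groups for the first probe, and 87.9% and 3.72% for the second. A number stands for 1 mouse of each genotype, so the 4 groups hold 2 sets of mice, 3 wt and 3 knockout. This pattern was looked for after the values were seen: 7.16% of all genes had 1 order in all 4 groups, and 14.7% had a larger share between replicate numbers. Over all genes the median share was 31.9% between replicate numbers and 26.4% between groups, so the direction is not particular to Cldn2. Replicate 2, where Xist was low and the mice were labelled 3 months old, was in the middle. The part of sex or age in this order was not tested. For S100g the shares were 0.06% between replicate numbers and 99.8% between groups, for Trpv6 3.56% and 89.7%, and for Atp2b1 0.81% and 97.6%.

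**Figure D2:**
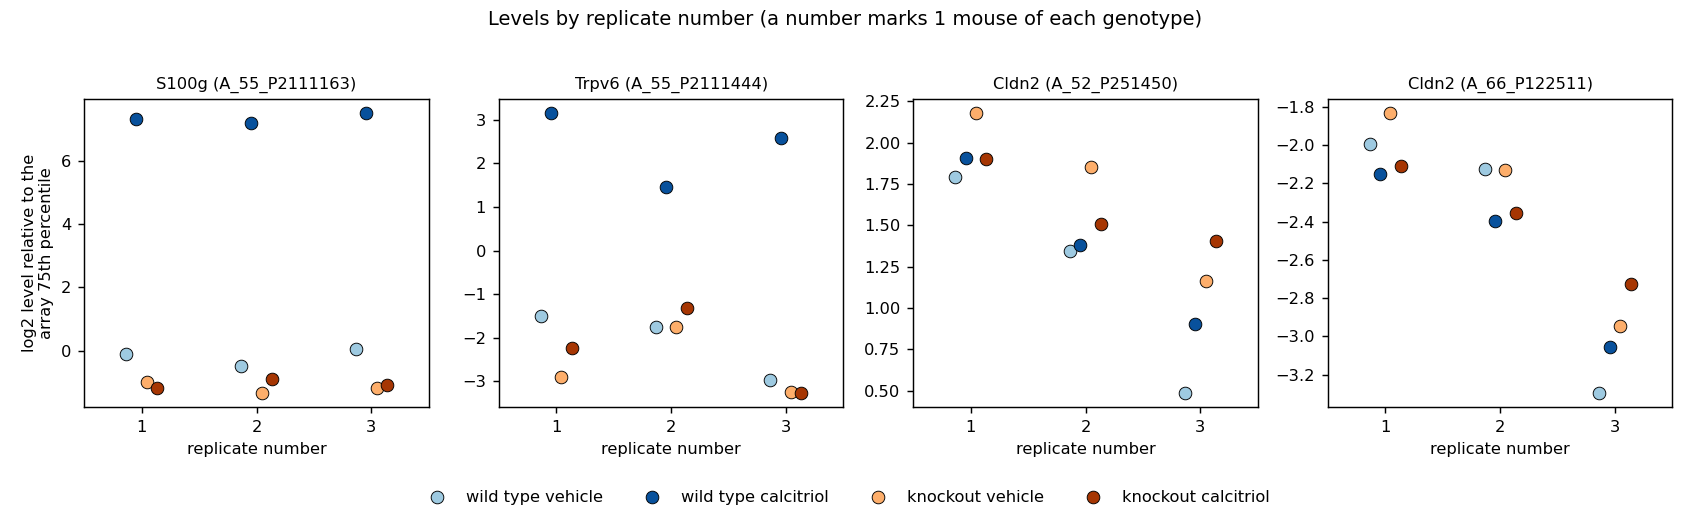
Levels of S100g, Trpv6 and both Cldn2 probes against the replicate number, as log2 signal relative to the array's 75th percentile, with 1 point per array coloured by group. For Cldn2 replicate 1 is highest and replicate 3 lowest in each colour, while for S100g and Trpv6 the wt calcitriol points stand above the rest at every number.

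In knockout organoids the same comparison asks what calcitriol does where the receptor gene is disrupted. No gene of the set passed (0 of 7), nor did any of the 24245 genes (0% called by limma, with or without mouse as a block). Before adjustment, 1 of the 7 was under 0.05, in the fit with and without mouse as a block, against 5.62% of all genes (8.11% with the block). S100g lay at -0.97, -1.34 and -1.17 in knockout vehicle and at -1.17, -0.88 and -1.08 in knockout calcitriol, and the groups overlapped. Its difference was 0.12 (SE 0.17, 95% interval -0.25 to 0.48), a fold of 0.839 to 1.40. Trpv6 lay at -2.90, -1.75 and -3.24 without hormone, and with it the 3 mice had -2.24, -1.32 and -3.27, again with overlap. Its difference of 0.35 (SE 0.59) had an interval of -0.93 to 1.64, a fold between 0.524 and 3.11. Atp2b1 lay at 1.68, 1.98 and 1.71 without hormone, and with it the mice had 1.45, 1.73 and 1.77, which also overlapped. The difference was -0.14 (SE 0.14, interval -0.44 to 0.16).

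The remaining genes also overlapped between knockout groups, so that 0 of 7 were apart, where 7.52% of all genes were. Atp2b4 was the gene under 0.05 before adjustment, with a difference of 0.74 (SE 0.32, interval 0.04 to 1.44, adjusted p = 0.864): mice 1 and 2 were higher with calcitriol by 1.52 and 0.79, and mouse 3 was lower by 0.10. Slc8a1 differed by 0.94 (SE 0.62), with 1 of 3 knockout vehicle arrays and 3 of 3 knockout calcitriol arrays above background. Its within-mouse differences were 1.88, 1.52 and -0.59. For knockout mice 1, 2 and 3 the vehicle arrays were on slides 1, 1 and 3, and the calcitriol arrays on slides 3, 3 and 2. Slide and treatment cannot be told apart within a knockout mouse. Cldn2 differed by -0.13 (SE 0.36) and Cldn12 by -0.09 (SE 0.13). Both pumps and the exchanger thus gave no called change in knockout organoids, and neither claudin did.

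The calcitriol effects of the genotypes were compared directly by their difference, wt minus knockout. It passed for S100g and Atp2b1, 2 of 7 genes against 0.0289% of all genes. For S100g the difference of effects was 7.38 (SE 0.24, 95% interval 6.86 to 7.90, adjusted p = 2.97e-08), since the effect was 7.49 in wt and 0.12 in knockout. For Atp2b1 it was 1.77 (SE 0.20, interval 1.34 to 2.19, adjusted p = 0.00582), from 1.63 in wt and -0.14 in knockout. The Atp2b1 call ended when the arrays were scaled to their median (2.57, adjusted p = 0.0930), with the slide as a block (1.74, adjusted p = 0.903), and on the largest slide alone (1.70, adjusted p = 0.625). For Trpv6 the difference of effects was 4.11 (SE 0.83, interval 2.29 to 5.93) and did not pass over all genes (adjusted p = 0.339). With the mouse as a block it passed (SE 0.53, adjusted p = 0.0350), which made 3 of 7 genes against 0.235% of all genes, and the 3 within-mouse differences in wt (3.22 to 5.53) were all above the 3 in knockout (-0.03 to 0.66). Left out in turn in that blocked fit, mouse by mouse, Trpv6 was at 3.58 to 4.73 and passed in 2 of 6 fits, without wt mouse 2 or knockout mouse 3. None of the other 4 genes passed, with differences between -1.66 for Slc8a1 (SE 0.88) and 0.32 for Cldn2 (SE 0.51).

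**Figure D3:**
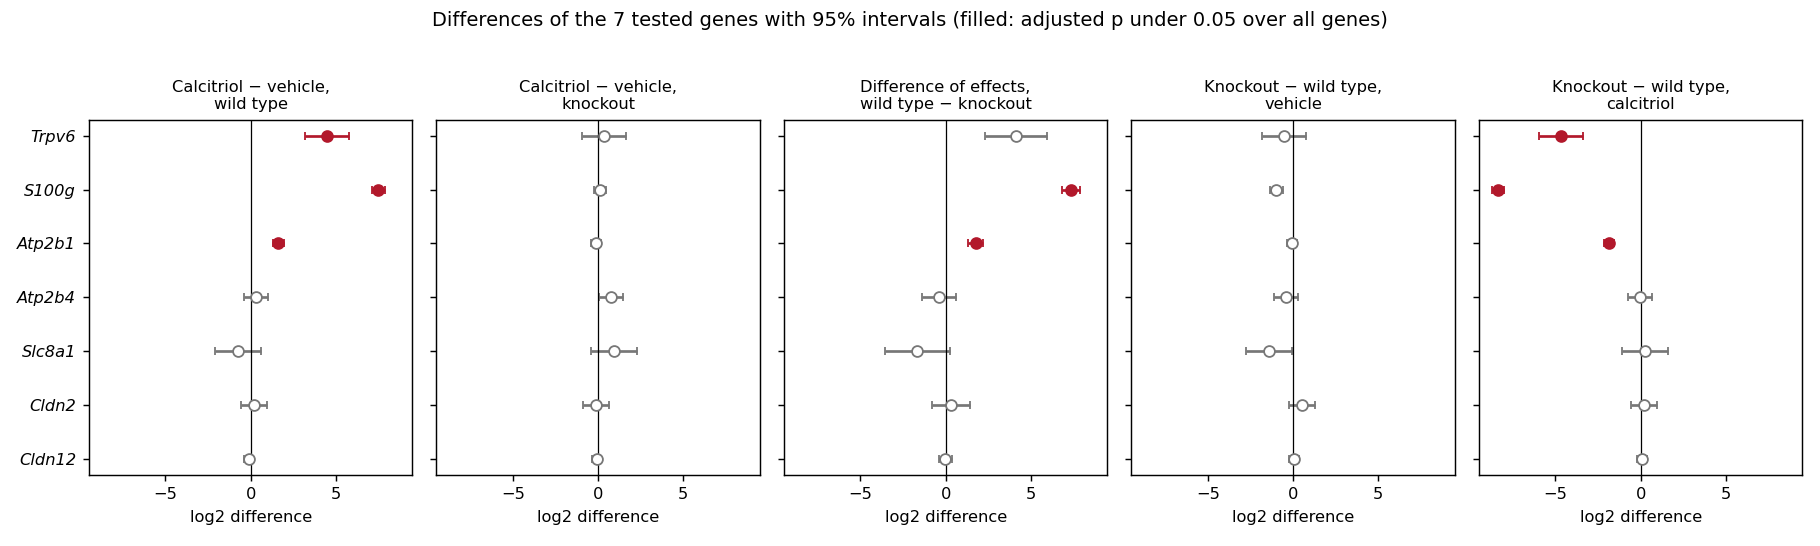
Log2 differences of the 7 tested genes in the 5 comparisons, with 95% intervals from the 12-array fit. Filled red points passed an adjusted p of 0.05 over all 24245 genes: Trpv6, S100g and Atp2b1 with calcitriol in wt and between genotypes in calcitriol, and S100g and Atp2b1 for the difference of effects. No point is filled with calcitriol in knockout or between genotypes in vehicle.

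Without added hormone, knockout against wt asks whether the receptor is needed for the level of these genes in vehicle. No gene of the set passed (0 of 7), against 0.00412% of all genes, and 2 of the 7 were under 0.05 before adjustment against 8.65% of all genes (3 of 7 against 15.2% with the replicate number as a block, where 0.0165% of all genes and none of the set were called). S100g was the gene whose groups did not overlap: the 3 wt vehicle arrays (-0.46 to 0.07) lay above the 3 knockout vehicle arrays (-1.34 to -0.97), as did 5.51% of all genes. Its difference was -0.99 (SE 0.17, interval -1.36 to -0.62, adjusted p = 0.329), a level 1.99-fold higher in wt, and the same-numbered pairs differed by -0.87, -0.87 and -1.23. Its second probe differed by -0.92 (SE 0.17), also without overlap. The vehicle arrays of mice 1 and 2 were on slide 2 in wt and on slide 1 in knockout. Slide and genotype cannot be told apart for these arrays. On the largest slide, where 1 array of each group was measured, S100g differed by -1.23, and after scaling to the median by -0.21. That scaling moves the median of all genes from -0.05 to 0.73 in this comparison. Trpv6 differed by -0.56 (SE 0.59), Atp2b1 by -0.08 (SE 0.14), Atp2b4 by -0.43 (SE 0.32), Slc8a1 by -1.40 (SE 0.62), Cldn2 by 0.52 (SE 0.36) and Cldn12 by 0.06 (SE 0.13).

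With calcitriol present, knockout organoids had less of the same 3 genes that rose in wt. These 3 calls, all lower, stand beside 0.194% of all genes called lower and 0.206% called in either direction. S100g was 330.9-fold lower in knockout (256.3 to 427.3), at -8.37 on the log2 scale (SE 0.17, adjusted p = 1.18e-10). Trpv6 was 25.5-fold lower (10.4 to 62.1), at -4.67 (SE 0.59, adjusted p = 0.00508), and Atp2b1 3.60-fold lower (2.92 to 4.44), at -1.85 (SE 0.14, adjusted p = 8.60e-05). Groups did not overlap for any of the 3, as for 3.63% of all genes in this direction. On the largest slide alone, which held 3 wt and 2 knockout calcitriol arrays, the Trpv6 call ended (-4.17, adjusted p = 0.108) and the calls of S100g (-8.35) and Atp2b1 (-1.91) held. This comparison, the one within wt and the difference of effects share the 3 wt calcitriol arrays, so they are not independent of each other. Atp2b4 (-0.01, SE 0.32), Slc8a1 (0.26, SE 0.62), Cldn2 (0.21, SE 0.36) and Cldn12 (0.08, SE 0.13) did not pass.

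The slides that held the arrays overlapped with treatment and with genotype. Slides were inferred from the names of the deposited array data, and the sample labels do not give them. Slide 1 held the vehicle arrays of knockout mice 1 and 2. Slide 2 held the vehicle arrays of wt mice 1 and 2 and the calcitriol array of knockout mouse 3. The rest were on slide 3, the largest. The largest slide held all 3 wt calcitriol arrays but 1 wt vehicle array, that of mouse 3, so the within-slide comparison in wt rests on that array and takes it to vary like the other groups. There S100g was higher by 7.26 (SE 0.21, adjusted p = 0.000180), Trpv6 by 5.35 (SE 0.65, adjusted p = 0.132) and Atp2b1 by 1.58 (SE 0.21, adjusted p = 0.153). Mouse 3 was the 1 wt mouse with both arrays on a slide, and it had differences of 7.42, 5.53 and 1.74 for these genes. Over all 12 arrays the differences were 7.49 for S100g, 4.46 for Trpv6 and 1.63 for Atp2b1, so the Trpv6 difference was larger within the slide, and the calls of Trpv6 and Atp2b1 ended with 7 arrays.

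**Figure D4:**
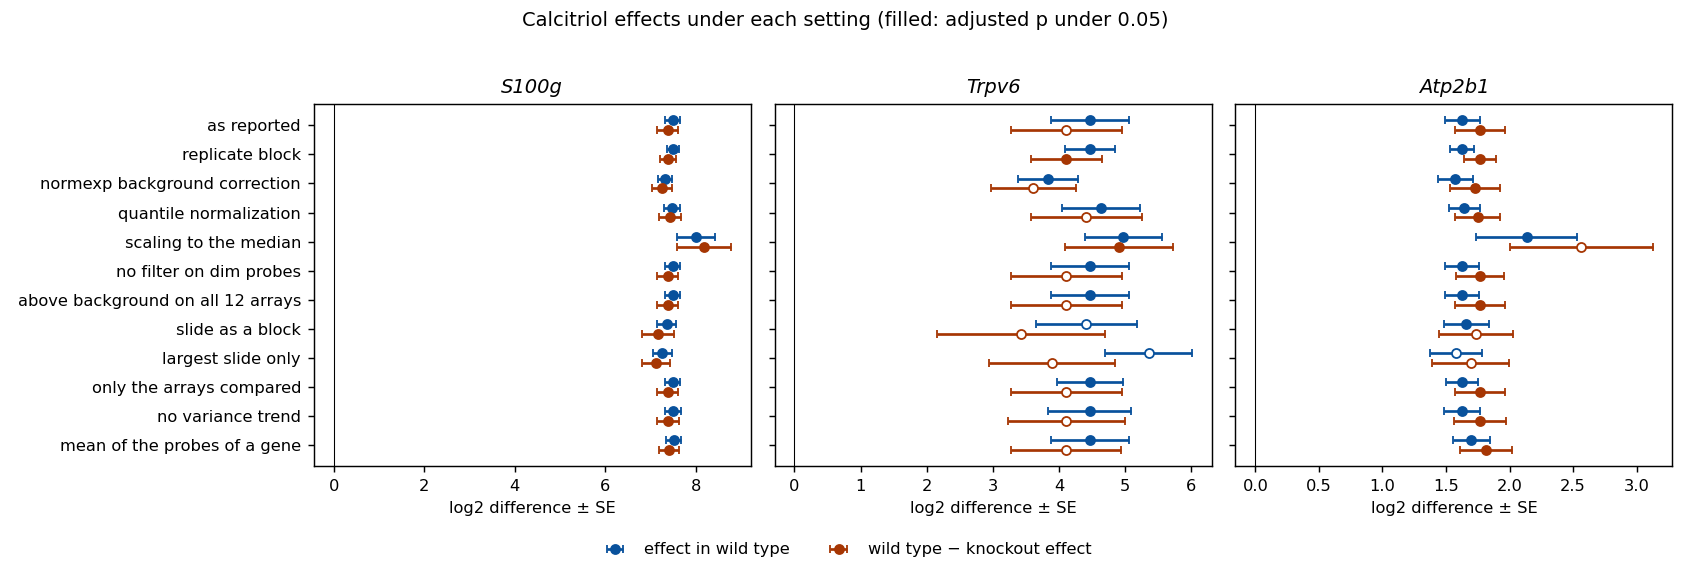
Calcitriol effect in wt (blue) and difference of effects between genotypes (brown) for S100g, Trpv6 and Atp2b1 under the reported fit and 11 other settings, in log2 units ± SE. Filled points passed an adjusted p of 0.05. All points lie above 0, S100g is filled throughout, and the Trpv6 difference of effects is filled with the replicate block and with scaling to the median.

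Ordered by group mean, S100g stood highest in wt calcitriol (7.33), then wt vehicle (-0.17), knockout calcitriol (-1.04) and knockout vehicle (-1.16). Neighbours in this order did not overlap, except the knockout groups, which differed by 0.12. For Trpv6 the order was wt calcitriol (2.39), wt vehicle (-2.07), knockout calcitriol (-2.28) and knockout vehicle (-2.63), and the last 3 overlapped each other. For Atp2b1 it was wt calcitriol (3.50), wt vehicle (1.87), knockout vehicle (1.79) and knockout calcitriol (1.65), and here too the last 3 overlapped in turn. For Atp2b4, Slc8a1, Cldn2 and Cldn12 every pair of neighbours overlapped.

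Other genes of calcium and phosphate handling were read from 6 lists of 100 genes, of which 79 were tested. In wt, none was called in the 12-array fit, with 4 of 79 under 0.05 before adjustment against 4.68% of all genes. With mouse as a block 3 were called, against 0.936% of all genes, and 11 were under 0.05 before adjustment, against 9.95%. None was called in the other 4 comparisons in the 12-array fit either, and with the block 1 was, between genotypes in calcitriol, where 1.01% of all genes were. Before adjustment 1 of the 79 was under 0.05 in knockout, 3 for the difference of effects, 4 between genotypes in vehicle and 1 in calcitriol, against 5.62%, 3.37%, 8.65% and 2.99% of all genes. With the block these were 5, 9, 13 and 9, against 8.11%, 7.86%, 15.2% and 7.53%. List medians in wt lay between -0.06 and 0.08, against -0.03 over all genes.

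Of 16 tested channels, Stim1, the sensor that opens store-operated calcium entry, had the smallest p in wt. It lay at 2.90 to 3.53 in wt vehicle and 3.76 to 4.28 in wt calcitriol, without overlap, and in knockout at 2.79 to 3.66 and 2.91 to 3.55. Its difference in wt was 0.77 (SE 0.25), with an adjusted p of 0.881 that became 0.00638 with mouse as a block, and between genotypes in calcitriol it was -0.78, with 0.885 and 0.00236 for the same adjusted p values. In knockout the means were 3.17 in both groups (SE of the difference 0.25), and the difference of effects did not pass (adjusted p = 0.0664 with the block). Cacna1d, a voltage-gated channel, differed by -1.55 (SE 0.71), the store channel Orai3 by 0.24 (SE 0.14) and the cation channel Trpc1 by 0.53 (SE 0.45), and none passed in either fit.

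Among 19 tested claudins and tight junction genes 10 had differences above 0 in wt. Cldn15, which like Cldn2 forms cation-permeable junctions, lay at 3.47 to 4.09 in wt vehicle and 4.43 to 4.70 in wt calcitriol. Its difference was 0.81 (SE 0.26), with an adjusted p of 0.845 that became 0.0259 once mouse was a block, against -0.02 (SE 0.26) in knockout. Cldn14, a cation-blocking claudin of the kidney, differed by -1.22 (SE 0.65), and here 0.988 became 0.0322. Cldn19 differed by 1.18 (SE 0.57) and Cldn10 by -1.60 (SE 0.82), neither of which passed. The differences of effects between genotypes passed for neither Cldn15 nor Cldn14 with the block (0.202 and 0.207).

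The paralogs and partners of the 3 genes that rose did not pass in either fit. Of 9 tested buffers and calmodulins, values in wt were -0.27 for the calcium-binding protein sorcin (Sri, SE 0.11), -0.15 for Calm2 (SE 0.09) and 0.11 for the buffer parvalbumin (Pvalb, SE 0.29). Among 17 other pumps and exchangers, they were -0.42 for the reticulum pump Atp2a1 (SE 0.21), -0.36 for the mitochondrial uniporter Mcu (SE 0.19) and -0.29 for Slc24a5 (SE 0.31). Among 14 genes for proteins that traffic or modify TRPV5 and TRPV6, they were 0.21 for the ubiquitin ligase Nedd4l (SE 0.13), -0.35 for the kinase Wnk4 (SE 0.27), -0.36 for the kinase Sgk1 (SE 0.32) and -0.15 for Nedd4 (SE 0.17). Of 4 tested phosphate transporters, Slc34a1 differed by 0.33 (SE 0.37), Slc20a2 by 0.11 (SE 0.16), Slc20a1 by -0.15 (SE 0.24) and the exporter Xpr1 by 0.05 (SE 0.15).

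**Figure D5:**
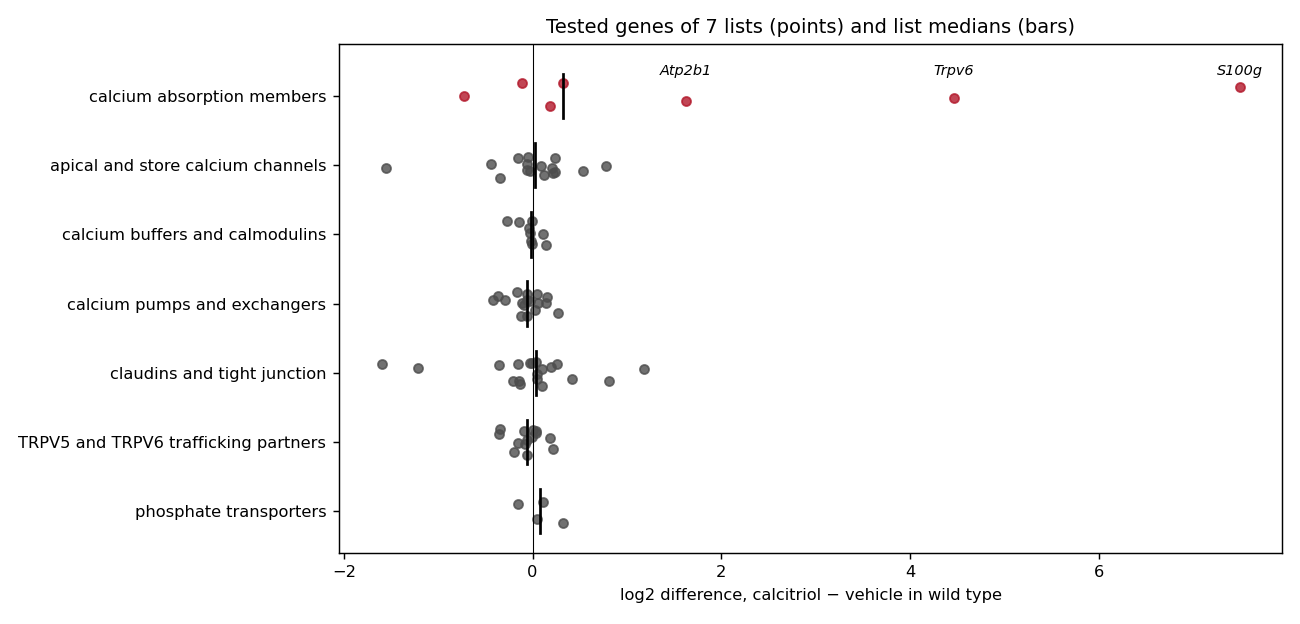
Log2 difference between calcitriol and vehicle in wt for the 7 tested calcium absorption genes (red) and the tested genes of 6 other lists (grey), 1 point per gene with the list median as a bar. S100g, Trpv6 and Atp2b1 are at 7.49, 4.46 and 1.63, and the 79 other genes lie between -1.60 and 1.18.

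Over the 12 arrays the 3 genes that rose tracked each other, with Pearson r of 0.985 for S100g and Atp2b1, 0.943 for S100g and Trpv6 and 0.942 for Trpv6 and Atp2b1. The arrays share the 4 groups, and 1 group stands apart for each gene, so these values describe that contrast. By the same measure the 5 genes most like S100g were Cyp24a1 (0.990), the phosphodiesterase gene Gdpd5 (0.989), Atp2b1 (0.985), Pdlim2 (0.977) and C2cd4a (0.975). For Atp2b1 they were S100g (0.985), C2cd4b (0.981), C2cd4a (0.977), Cyp24a1 (0.973) and Pdlim2 (0.972), so Cyp24a1, C2cd4a and Pdlim2 stood in both lists. The 5 for Trpv6 were the lipase gene Pla2g7 (0.964), the gut hormone gene Fgf15 (0.948), Gdpd5 (0.947), Gnb5 (0.945) and Cebpd (0.944). Of these, Gdpd5 also stood in the list of S100g.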

How the data were processed

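RNA of 12 colonic organoid cultures was hybridised to 1-colour Agilent arrays. The deposited files give linear intensities per spot, which the authors obtained with Feature Extraction 11.5.1.1, per the file headers, with background subtracted and no normalization between arrays. The probe annotation is on mm9, per the file headers, and gene names were looked up by accession in a RefSeq table (assembly GRCm38.p6).

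Control and outlier spots were left out. The log2 processed intensity was averaged over the spots of a probe, and each array's 75th percentile was subtracted. Of 55681 probes, 163 with missing values were dropped, 33410 had signal well over background on each array of some group (3 arrays), and the brightest stood for each of 24245 genes. The 4 group means were fitted with limma 3.58.1 (R 4.3.3, variance trend, 2-sided), with no term for the mouse that 2 arrays share, and p values were adjusted by Benjamini-Hochberg over all genes at 0.05. The fit was also run on simulated data, which held no slide effect and so cannot show how slides bear on the calls.

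Same-numbered arrays deviated together from the group means (correlations across genes 0.574, 0.323 and 0.321 in wt mice, 0.255, 0.589 and 0.103 in knockout mice, 0.135 to 0.637 between genotypes), and vehicle and calcitriol arrays of a number came from the same mouse. A second fit therefore used mouse as a block, or the replicate number between genotypes. Other settings changed background correction, scaling, dim-probe filter, probe rule, slide, arrays fitted and variance trend.

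The members, the 6 lists and the markers were chosen with earlier results of these data known. The text names all members, Vdr, Cyp24a1, Xist, Ddx3y, from each list the called members or up to 4 with the smallest p in wt, and the 5 genes correlating best with S100g, Trpv6 and Atp2b1. Some genes that this rule names are not reported here. Array number (3 a group) limits the precision.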

Additional observations from a re-analysis of the deposited data

Results flagged for a closer look

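The calcitriol effect differed between genotypes by its own test for 2 genes of calcium absorption. For S100g the effect was higher in wt by 7.38 on the log2 scale (SE 0.24, limma adjusted p = 2.97e-08), with within-mouse differences of 7.42 to 7.64 in wt and of -0.19 to 0.45 in knockout. For Atp2b1 it was higher in wt by 1.77 (SE 0.20, adjusted p = 0.00582), with within-mouse differences of 1.50 to 1.74 in wt and of -0.25 to 0.06 in knockout. Slides and genotype overlap in this design, and the Atp2b1 value did not pass with the slide as a block, as given above.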

How the results depend on the processing

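With the slide as a block, the genes of the set called in wt went from 3 to 2, their called probes from 5 to 3, and the genes called for the difference of effects from 2 to 1. On the largest slide alone 7 arrays were fitted, 1 of them a wt vehicle array. There the wt calls of Trpv6 and Atp2b1 ended, as did the Atp2b1 call for the difference of effects. Between genotypes in calcitriol the Trpv6 call ended. The parts of slide and of array number in this were not tested. The replicate block changed 1 call among the members, that of Trpv6 for the difference of effects (4.11, adjusted p = 0.0350), and no other. Leaving out 1 array in turn gave 2 to 3 genes of the set called in wt, 5 of its probes in each case, 0 in knockout, 2 for the difference of effects, 0 between genotypes in vehicle and 3 in calcitriol. Leaving out 1 mouse in the blocked fit gave 3, 5, 0, 2 to 3, 0 and 3. No called value of a member changed sign under any setting run.

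Over all genes, the 38 calls in wt became 227 with the block, 76 with scaling to the median, 20 with only the 6 arrays compared, 57 with normexp background correction, 8 with the slide as a block, 3 on the largest slide and 14 to 38 with 1 array left out. The share called higher was 94.7%, against 69.2% with the block (157 higher, 70 lower) and 78.9% with normexp background correction (45 higher, 12 lower). The 7 calls for the difference of effects became 57 with the block, 27 with scaling to the median, 7 with only the arrays compared, 1 with the slide as a block, 2 on the largest slide, 11 with normexp background correction and 12 with quantile normalization; 24 of the 27 were higher. Between genotypes in calcitriol 50 calls (3 higher) became 245 with the block (78 higher, 167 lower), 15 on the largest slide and 25 to 56 with 1 array left out, and in vehicle 1 call became 4 with the block, 3 without a variance trend, 2 with scaling to the median and 0 with the slide as a block, on the largest slide, with only the arrays compared or with probes above background on all 12 arrays. The count of probes has no value when probes of a gene are averaged. Scaling to the median moved the median of all genes in wt from -0.03 to 0.48 and in knockout from 0.03 to -0.26, and the uncalled Trpv6 difference in vehicle from -0.56 to 0.22. Levels near background, as for Slc8a1 and Trpv5, carry little information on either side of a comparison.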
